A study of Mus musculus with 8 samples.

Results

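A set of 1610 stretches of the mouse genome lay in lamina associated domains (LADs) of 3T3-L1 adipocytes with Tmem120a knockdown and in no LAD of the 3 other conditions of the series. They were picked by bp from the deposited LAD lists, as runs of at least 8 kb held by the Tmem120a knockdown list and by none of the other lists. All runs of at least 8 kb held by any combination of the 4 lists numbered 23853. Together the 1610 stretches covered 42.9 Mb, which was 3.69% of the LAD length of that list and 1.62% of the genome. The lists themselves chose these members, so their presence in 1 list and absence from 3 is the definition and not a result.

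LaminB1-DamID was carried out in 3T3-L1 cells, a mouse fibroblast line that turns into adipocytes under insulin, dexamethasone, IBMX and rosiglitazone. The 4 conditions were untreated preadipocytes without any shRNA (day 0), adipocytes labelled as carrying a non-target control shRNA (day 9), adipocytes with a Tmem120a shRNA (day 9) and adipocytes with a Tmem120a/b shRNA (day 9), with the knockdowns made as stable shRNA lines and Dam or LaminB1-Dam brought in by lentivirus. The paper names an empty shRNA vector as the reference for the loss of Tmem120a protein and non-target shRNAs as the control of its microarrays. The label was followed here. The Tmem120a/b condition also targets Tmem120a, so each stretch was held by 1 of the 2 lists from cells with a Tmem120a shRNA. Every list came from 1 pair of libraries, LaminB1-Dam with Dam, and none was repeated, so there is no spread between cultures against which any difference could be set, no test is given, and the level of Tmem120a in these cultures was not analysed here.

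LADs are regions of chromatin that lie against the lamina, the protein mesh under the inner nuclear membrane, and they are usually gene-poor, AT-rich and little transcribed. Tmem120a is a transmembrane protein of the nuclear envelope that is induced during adipogenesis, and Tmem120b is its paralog. In DamID a bacterial adenine methylase (Dam) fused to LaminB1 methylates GATC sites close to the lamina, free Dam controls for accessibility, and the fragments between GATC sites are the unit of measurement.

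The borders of the stretches show this unit. Of the 3220 borders, 3219 fell on a GATC site of the mm9 genome. The 40 bases around both borders of 3 of the 4 longest stretches are given, with every GATC in capitals, because they show the cut site at which each stretch begins or ends. At the left borders on chromosomes X and 13 the Tmem120a knockdown LAD itself runs on. The first pair lies on chromosome 3, the next on chromosome X and the last on chromosome 13, within Phactr1 on its right side.
chr3:116710214-116710253, left border, plus strand: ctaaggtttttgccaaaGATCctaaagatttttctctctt
chr3:116825698-116825737, right border, plus strand: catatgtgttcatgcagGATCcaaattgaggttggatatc
chrX:65571380-65571419, left border, plus strand: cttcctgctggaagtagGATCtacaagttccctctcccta
chrX:65681458-65681497, right border, plus strand: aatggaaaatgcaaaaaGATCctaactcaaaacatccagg
chr13:42757893-42757932, left border, plus strand: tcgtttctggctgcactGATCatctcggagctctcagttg
chr13:42857899-42857938, right border, plus strand: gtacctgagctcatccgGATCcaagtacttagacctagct
In each of these 6 windows the border GATC is the only one. The stretches held a median of 2.43 GATC sites per kb and a median of 56 sites each, with a range of 5 to 325.

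The stretches were short. Their length had a median of 22.7 kb, with quartiles of 15.9 and 33.8 kb, and the longest reached 145.6 kb. Only 126 of the 1610 (7.83%) were at least 50 kb long and 4 were at least 100 kb. The same rule applied to the other lists gave 1471 stretches for preadipocytes, 1265 for control adipocytes and 2327 for the double knockdown, with medians of 23.4, 24.5 and 24.0 kb. At 50 kb or more there were 15.9% of the preadipocyte, 19.7% of the adipocyte and 10.3% of the double knockdown stretches, so the Tmem120a knockdown had the smallest share of long ones. At the 8 kb threshold, the 3 shortest members measured 8013, 8014 and 8022 bp, and the 3 longest runs left out measured 7909, 7977 and 7986 bp. A further 511 runs of the Tmem120a knockdown list alone fell under 8 kb, with a median of 3.90 kb and 1.95 Mb in all. None of them could be a whole LAD, since the shortest LAD in any list was 15001 bp.

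Each stretch was either a whole LAD of its own or the edge or middle of a LAD that other lists hold in part. Freestanding stretches, which are whole LADs meeting no LAD of another list, numbered 741, or 46.0% (95% Wilson interval over regions 43.6 to 48.5). They carried 23.2 Mb of the 42.9 Mb. A further 714 (44.3%, 41.9 to 46.8) were joined on 1 side to a part of the same LAD that another list shares, and 155 (9.63%, 8.28 to 11.2) were joined on both sides and so bridged shared parts. These intervals cover counting over regions only, since neighbouring regions are not independent and no culture was repeated. Freestanding stretches had a median of 26.9 kb, those joined on 1 side 18.5 kb and those joined on both sides 19.3 kb. These lengths have different floors, since a freestanding stretch is a whole LAD of at least 15001 bp and a joined one needs only 8 kb.

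**Figure D1:**
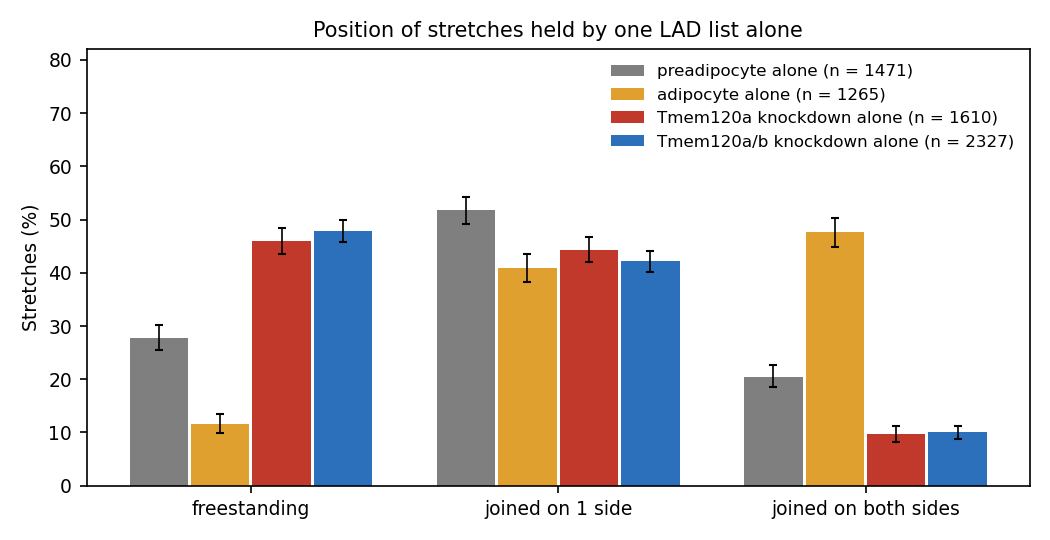
Percentage of stretches held by 1 LAD list alone (y axis) that are freestanding, joined on 1 side or joined on both sides, for each of the 4 lists (colours), with 95% Wilson intervals over regions as error bars. The Tmem120a knockdown and double knockdown bars lie close together, at 46.0% and 47.8% freestanding, while 47.6% of the adipocyte stretches are joined on both sides.

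The stretches of the double knockdown list alone had much the same make-up, with 47.8% freestanding (45.8 to 49.9) and 10.0% joined on both sides (8.86 to 11.3). Control adipocytes differed, with 11.5% freestanding (9.90 to 13.4) and 47.6% joined on both sides (44.8 to 50.3), and preadipocytes lay between with 27.8% (25.6 to 30.1) and 20.5% (18.5 to 22.6). The number of LADs in a list moved with this share: the Tmem120a knockdown list held 5723 LADs with a median of 59.1 kb, the double knockdown list 6971 with 60.7 kb, the preadipocyte list 3914 with 83.2 kb and the adipocyte list 2542 with 103.1 kb, at nearly equal total lengths of 1161 to 1198 Mb. The part of this cutting into more and shorter LADs in the result was not tested beyond a comparison within length classes. Among LADs of 15 to 20 kb, 195 of 549 in the Tmem120a knockdown list were freestanding (35.5%, 31.6 to 39.6), beside 31.3% (25.9 to 37.3) in preadipocytes, 21.7% (16.1 to 28.6) in adipocytes and 43.6% (39.9 to 47.3) in the double knockdown. The 4 lists kept this order from 20 to 30 kb, with 30.3% in the Tmem120a knockdown list, and from 30 to 50 kb, with 20.3%. The order differed among LADs of 50 kb or more. From 50 to 100 kb the freestanding share was 6.23% (5.03 to 7.68) in the Tmem120a knockdown list, below the 10.6% (8.66 to 12.9) of preadipocytes and beside 5.33% (3.54 to 7.93) in adipocytes and 7.40% (6.20 to 8.82) in the double knockdown. Over 100 kb, 2 of 1991 LADs were freestanding in the Tmem120a knockdown list (0.100%, 0.0276 to 0.366), the lowest share of the 4 lists, beside 1.48% (1.01 to 2.17) in preadipocytes, 0.467% (0.214 to 1.01) in adipocytes and 0.442% (0.247 to 0.791) in the double knockdown.

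**Figure D2:**
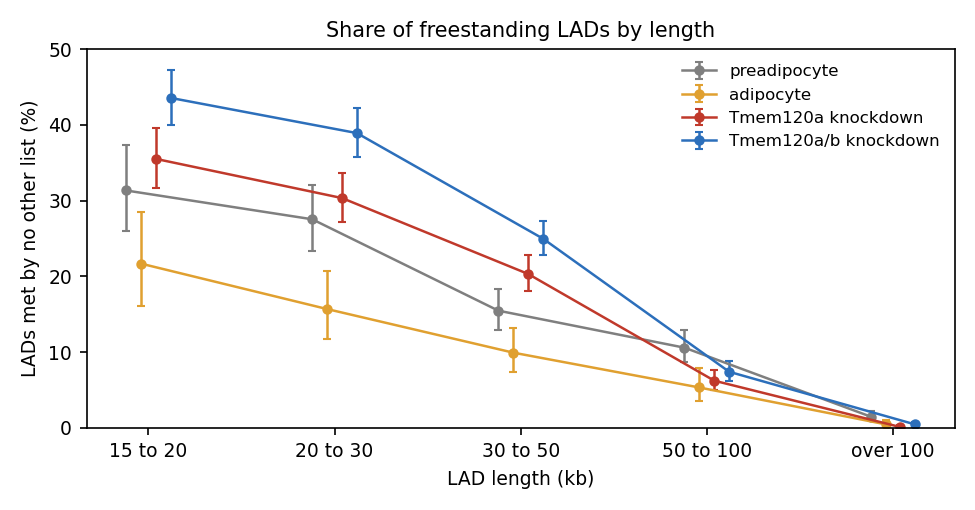
Percentage of the LADs of each list that meet no LAD of another list (y axis) by LAD length in kb (x axis), with 95% Wilson intervals over regions. In the Tmem120a knockdown list the share drops from 35.5% at 15 to 20 kb to 20.3% at 30 to 50 kb and 6.23% at 50 to 100 kb.

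Where a stretch was joined, the run of bp directly next to it was most often LAD shared with the double knockdown. Only this adjoining run was read, and it begins where the first LAD of another list is met. LADs of further lists may begin close behind it. The counts thus show which list's LAD reached the stretch, and not which lists share the rest of that LAD. Of 1024 joined sides, 519 (50.7%) ran on into LAD held by both knockdowns and in neither of the other lists, 257 (25.1%) into LAD shared with adipocytes alone and 242 (23.6%) into LAD shared with preadipocytes alone. For stretches of the double knockdown alone, 652 of 1447 joined sides (45.1%) ran on into LAD shared with the Tmem120a knockdown alone. A knockdown list was also the most frequent neighbour for the other pair of lists, with the double knockdown at 617 of 1363 joined sides of preadipocyte stretches (45.3%) and the Tmem120a knockdown at 724 of 1721 of adipocyte stretches (42.1%), so this joining was not particular to the knockdown stretches. About the freestanding stretches the nearest foreign LAD was one of the double knockdown for 464 (62.6%), of preadipocytes for 153 (20.6%) and of adipocytes for 121 (16.3%), an order that also follows the number of LADs in those lists. Their median distance to a LAD of any other list was 79.1 kb, and 102 (13.8%) had one within 10 kb. At the other end, 71 (9.58%) lay more than 500 kb from every LAD of the other lists. Measured to the adipocyte list alone, the median distance of freestanding stretches was 321.9 kb, against 113.6 kb to the double knockdown list.

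The surroundings of the stretches held less LAD than the genome as a whole. Part of this follows from the rule, which puts every stretch outside the LADs of the other lists. A value for other sequence outside those LADs is not given here. In the 100 kb on either side, 17.2% of the sequence was adipocyte LAD, 19% preadipocyte LAD and 25.3% double knockdown LAD, whereas these lists covered 45.1%, 44.9% and 43.7% of the genome. Around freestanding stretches the same values were 6.15%, 7.81% and 11.0%. Around the stretches of the adipocyte list alone, the flanks were 35.6% preadipocyte LAD and 39.7% Tmem120a knockdown LAD, more than around the Tmem120a knockdown stretches. The poor surroundings were not particular to the Tmem120a knockdown. Flanks of the stretches of the double knockdown alone were 14.6% adipocyte LAD, 21.1% preadipocyte LAD and 22.8% Tmem120a knockdown LAD, and flanks of the stretches of preadipocytes alone were 19.5% adipocyte LAD, 23.4% Tmem120a knockdown LAD and 29.9% double knockdown LAD. Most members, 877 of 1610 (54.5%), sat in a gap of at least 1 Mb between neighbouring adipocyte LADs, and 146 (9.07%) in a gap under 100 kb. Of the 2521 gaps between adipocyte LADs, 834 (33.1%) held a stretch, with a median gap length of 495.5 kb against 90.9 kb over all gaps. A longer gap has more room for a stretch, and the share of all gap length in gaps of at least 1 Mb is not given here. Only 19 gaps were filled to at least 90% by the stretches alone. Tmem120a knockdown LAD shared with preadipocytes or the double knockdown was not counted here, so how many gaps the knockdown LADs closed was not measured.

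**Figure D3:**
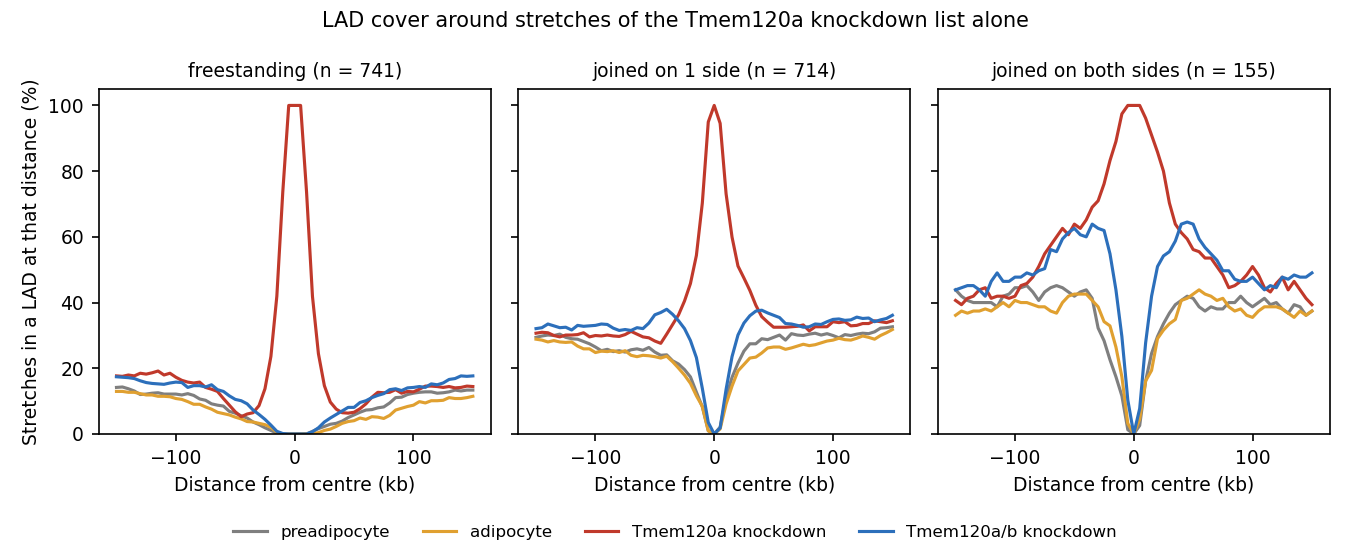
Percentage of stretches that lie in a LAD of each list (y axis) at each distance in kb from the stretch centre (x axis), for freestanding stretches and for those joined on 1 or both sides. The centre value of 100 for the Tmem120a knockdown and 0 for the other lists is set by the rule, and at 100 kb to the right of freestanding stretches 8.77% were adipocyte LAD and 14.2% double knockdown LAD.

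The 5 longest stretches and the longest of each kind show these forms. The longest, chr18:63412379-63557957 in mm9, was a freestanding LAD of 145.6 kb over the 5′ part of Fam38b (Piezo2), which encodes a mechanically gated ion channel. It held the transcription start and 35.7% of the gene body, and with a second stretch in the gene the share was 44.9%. Around the longest stretch, the nearest double knockdown LAD was 75.6 kb away, the nearest preadipocyte LAD 744.5 kb away and the nearest adipocyte LAD 2895 kb away. LAD of the double knockdown took 20.1% of the body of the same gene, outside the stretches, while preadipocytes and adipocytes had none there.

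A freestanding LAD of 115.5 kb, chr3:116710234-116825717, enclosed the whole of 1700061I17Rik, with the nearest adipocyte LAD at 27.1 kb. On chromosome X, chrX:65571400-65681477 extended a LAD shared by both knockdowns by 110.1 kb and met no protein-coding gene, and 45.5% of its GATC site ends read the same as another site (the measure is explained further on). The stretch chr13:42757913-42857918, of 100.0 kb, extended a LAD shared with the double knockdown over the start of Phactr1, a regulator of protein phosphatase and actin. It covered 27.8% of the gene, counting a second stretch within it, and the other 3 lists held no LAD over any of its 457.9 kb.

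The fifth, chrX:35179491-35278619, of 99.1 kb, held Rhox6, Rhox7, Rhox8, Gm14543 and Rhox9 whole, members of a cluster of homeobox genes used in the testis and placenta. It ended against LAD shared by both knockdowns on its right side. The third longest freestanding LAD, chrX:90848558-90947625 of 99.1 kb, held the starts of both Pola1, the catalytic subunit of DNA polymerase alpha, and Pcyt1b, an enzyme of phosphatidylcholine synthesis. The nearest LAD of any other list there was 540.9 kb away, in the double knockdown.

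Among stretches joined on both sides, the longest was chr13:97514914-97586668 (71.8 kb), which bridged LAD shared with the double knockdown on the left and LAD shared with adipocytes on the right. The next, chr5:50249916-50313680 (63.8 kb), bridged the same kinds in the opposite order, and chr10:83765027-83828534 (63.5 kb) filled a gap between parts shared with the double knockdown. None of these 3 met a protein-coding gene. The stretches meeting most genes, 6 each, were chr10:77220815-77303742 (82.9 kb), with Gm3233, Gm3238, Gm7138, Gm3250 and Gm7137 among them, and chr11:114843090-114907451 (64.4 kb), with Cd300ld, AF251705, Gm11709, Gm11710 and Gm11711, of which Cd300ld belongs to a family of receptors on myeloid cells. The Rhox stretch followed with 5.

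**Figure D4:**
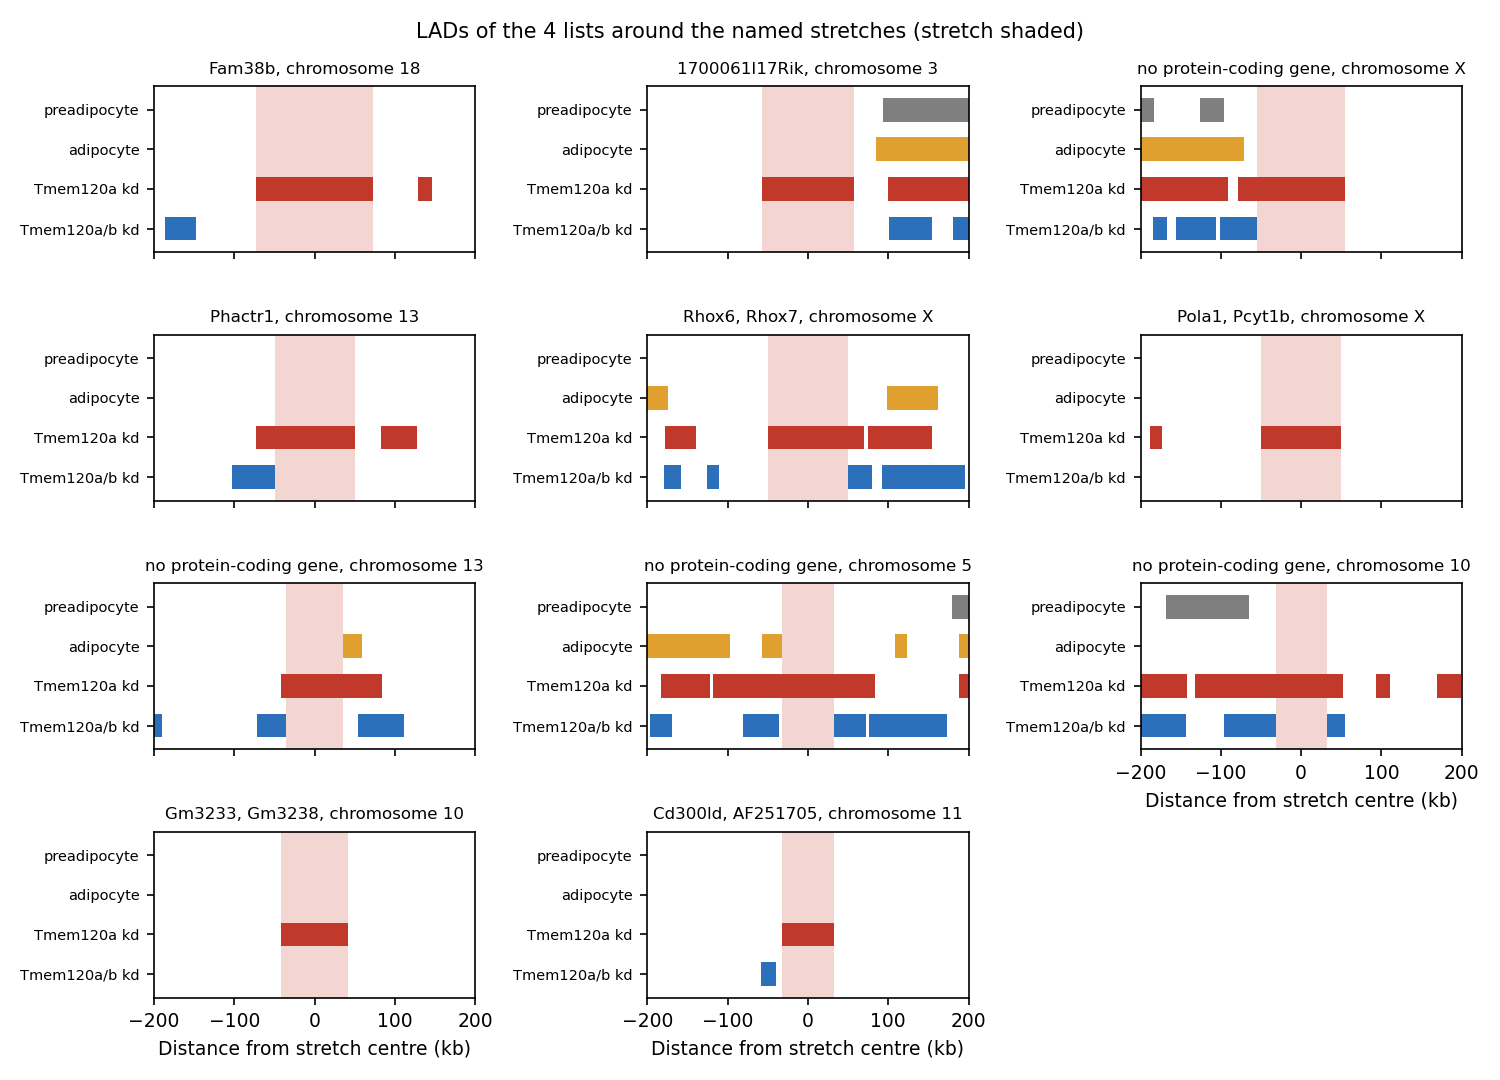
LADs of the 4 lists (rows, coloured bars) within 200 kb of the centre of each named stretch (x axis, distance in kb), with the stretch shaded. Beside the Fam38b stretch of 145.6 kb only short double knockdown and Tmem120a knockdown LADs appear, while the stretches joined on both sides run between LADs of other lists.

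In sequence the stretches resembled the genome outside LADs more than the LADs common to all conditions. Their median GC content was 42.2% (quartiles 39.9 and 44.8), against 42.5% for runs of at least 8 kb in no list and 39.5% (37.8 and 41.6) for runs held by all 4 lists. CpG density followed the same order, at 8.47 per kb in the stretches, 9.26 in no list and 5.96 in all 4 lists. Freestanding stretches had 42.4% GC and those joined on both sides 41.7%. The stretches of the double knockdown alone had 42.8% GC and those of both knockdowns alone 42.5%. The stretches of preadipocytes alone lay near these, with 41.6% GC and 7.94 CpG per kb, and it was the stretches of adipocytes alone, at 39.2% GC, that lay close to the common LADs. The quartile ranges overlap between all of these sets, so single stretches cannot be told apart by GC. GATC density differed little, at 2.43 per kb in the stretches, 2.40 in no list and 2.60 in all 4 lists.

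DamID fragments end at GATC sites, and a read from a sequence that stands at several sites cannot be placed with certainty. The 32 bases next to each end of every GATC site were compared over the genome. In the stretches, 15.5% of 208786 site ends were the same as another site end, which lies below the genome (19.8%) and the common LADs (29.1%) and above runs in no list (10.5%). The stretches of the double knockdown, preadipocytes and adipocytes alone had 13.9%, 20.8% and 21.1%. The median stretch had 7.53% repeated ends, and 95 of the 1610 had at least 50%. Among the named stretches the share ran from 1.29% for the Phactr1 stretch to 38.7% for the Rhox stretch and 62.3% for the Cd300ld stretch. The single stretch on chromosome Y had 97.3%. How the authors treated reads with several matching places is not given in the sources used here, and its part in these stretches was not tested.

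**Figure D5:**
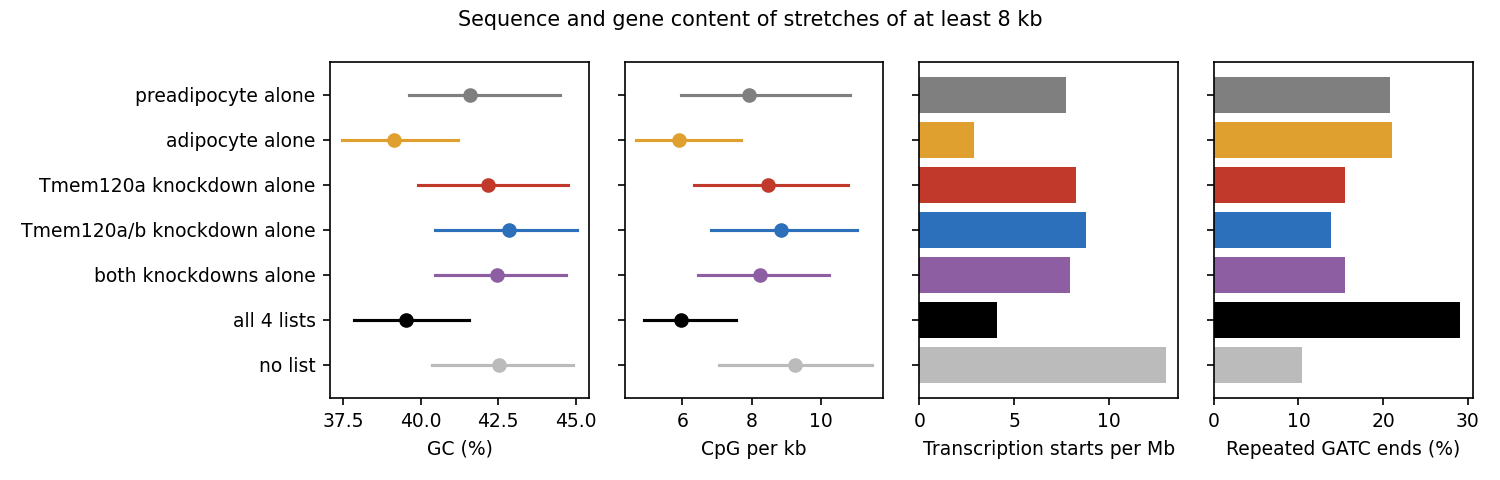
Median and quartiles of GC (%) and CpG per kb, transcription starts of protein-coding genes per Mb and percentage of GATC site ends repeated elsewhere, for runs of at least 8 kb by the lists that hold them. The Tmem120a knockdown stretches, at 42.2% GC and 8.29 starts per Mb, lie near the runs in no list for GC and between those and the LADs of all 4 lists for gene starts.

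Promoter sequences of the members differ in whether they hold a GATC site. Phactr1, Rhox7 and Gm14543 have their start within the 5 longest stretches, and the 300 bases from 250 before to 50 after the annotated start are given with GATC in capitals, the Phactr1 promoter as one that carries a site and the other pair as near copies.
Phactr1 promoter, chr13:42775742-42776041, plus strand: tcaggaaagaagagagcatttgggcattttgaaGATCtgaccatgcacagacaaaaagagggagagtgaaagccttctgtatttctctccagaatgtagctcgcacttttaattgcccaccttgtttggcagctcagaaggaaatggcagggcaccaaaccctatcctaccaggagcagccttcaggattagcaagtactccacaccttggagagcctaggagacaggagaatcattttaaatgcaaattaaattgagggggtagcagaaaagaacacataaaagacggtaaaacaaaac
Rhox7 promoter, chrX:35184613-35184912, plus strand: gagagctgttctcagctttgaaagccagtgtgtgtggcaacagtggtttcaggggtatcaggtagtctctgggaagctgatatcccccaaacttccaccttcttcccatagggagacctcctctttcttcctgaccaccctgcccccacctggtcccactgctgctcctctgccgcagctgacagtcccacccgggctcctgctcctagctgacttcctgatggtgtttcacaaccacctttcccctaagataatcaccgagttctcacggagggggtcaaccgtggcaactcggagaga
Gm14543 promoter, chrX:35250360-35250659, minus strand: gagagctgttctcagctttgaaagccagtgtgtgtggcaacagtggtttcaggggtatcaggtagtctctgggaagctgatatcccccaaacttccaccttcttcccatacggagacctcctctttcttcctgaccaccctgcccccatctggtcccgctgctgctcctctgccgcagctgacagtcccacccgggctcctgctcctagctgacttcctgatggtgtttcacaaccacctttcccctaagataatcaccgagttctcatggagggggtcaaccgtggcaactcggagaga
The Rhox7 and Gm14543 promoters differ at 4 of 300 positions and neither holds a GATC. GATC, which reads the same on both strands, occurs in 46.2% of the promoters of all 22367 protein-coding genes and in 42.7% of the 356 promoters starting in a stretch.

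Protein-coding genes were as dense in the stretches as in the genome at large. The 356 transcription starts inside them (1.59% of 22367 genes) came to 8.29 per Mb, against 8.42 in the genome, 13.0 in runs of no list and 4.09 in LADs common to all lists. The double knockdown stretches had 8.80 per Mb, the preadipocyte stretches 7.75 and the adipocyte stretches 2.91. By any overlap, 1006 genes (4.5%) met a stretch. Gene length moved with this count: the genes met had a median of 68.3 kb against 15.4 kb for all genes. Only 163 (0.729%) lay whole in a stretch, and these were short, with a median of 5.97 kb and a maximum of 30.6 kb.

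Stretches that touched a gene without reaching a start were about as many as those that met no gene. Of the 1610, 277 (17.2%) held a transcription start, 501 (31.1%) met an exon but no start, 171 (10.6%) lay wholly within introns and 661 (41.1%) met no protein-coding gene. The make-up was similar for the stretches of the double knockdown alone, of which 38.8% met no gene and 19.6% held a start. Of the 1471 stretches of preadipocytes alone 736 met no gene and 308 (20.9%) held a start, and of those of adipocytes alone 65.8% met no gene and 8.77% held a start. By length, 43.0% of the Tmem120a knockdown stretches was intron, 3.25% exon and 53.8% intergenic, beside 44.9%, 4.87% and 50.2% in no list and 23.0%, 0.899% and 76.1% in the common LADs. A single gene was met by 817 stretches, 2 genes by 110 and at most 6 genes by any.

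Genes wholly inside a stretch covered diverse functions. The longest was Gm498 (30.6 kb). Potassium channels gave Kcnj5 (29.5 kb), an inwardly rectifying channel subunit, in a freestanding LAD of 30.9 kb, and Kcnmb3 (19.6 kb), a regulatory subunit of calcium-activated channels, in one of 39.5 kb. Genes of general cell functions included Nsun4, a methyltransferase of mitochondrial rRNA, Guf1, a factor of mitochondrial translation, Gnpda2, an enzyme of amino sugar metabolism, Zwint, a kinetochore protein, and Sec11c, a subunit of the signal peptidase. Gnpda2 and Guf1 shared a stretch of 50.1 kb on chromosome 5, joined on 1 side to LAD shared with adipocytes. A double knockdown LAD lay at 8.21 kb from it and a preadipocyte LAD at 10.1 kb. Tissue-restricted genes included Tlr8, a receptor for viral RNA (stretch of 53.8 kb), Csrp3, the muscle LIM protein (57.7 kb), Atp1b4, of the sodium pump beta subunit family (63.0 kb), Lipn, a lipase (46.0 kb), Vgll1, a cofactor of TEAD factors (39.0 kb), Bpifb2, a lipid-binding secreted protein (48.1 kb), and Dcpp2, a salivary protein (33.8 kb). Arl13a and D1Ertd622e lay in stretches of 89.2 and 35.6 kb. Each of these genes was inside LAD over 100% of its body in the Tmem120a knockdown list and over 0% in the double knockdown list, as the rule sets.

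The lists of fat cell genes were small and were not tested against all protein-coding genes, of which 4.5% were met. None of 25 adipogenic transcription factors, 29 lipid storage and adipokine genes and 19 thermogenic genes met a stretch. Nor did any of 16 genes picked from those the study names, a list that does not hold every gene it discusses. Of 37 enzymes of fatty acid and triglyceride synthesis, only Acaca, the carboxylase that makes malonyl-CoA, was met, with 18.5% of its 272.0 kb body inside a freestanding LAD of 50.3 kb (chr11:84106358-84156654) that did not reach its annotated start. The stretches of adipocytes alone met 0 genes of these lists of adipogenic factors, lipid storage, thermogenic genes and synthesis enzymes. Those of the double knockdown alone met 1, 0, 3 and 2, and those of preadipocytes alone met 1, 1, 0 and 3. Of the 16 genes named by the study these sets met 4, 2 and 3, in the same order. Over all 22367 protein-coding genes they met 350, 1502 and 741 genes, against 1006 for the Tmem120a knockdown stretches. The sets thus differ in how many genes they meet at all, and no test was made. Of 62 muscle and myogenic genes, only Sgcd, delta sarcoglycan, was met, by 3.71% of its body, and that gene was already in LAD over 57.6% to 73.9% of its length in all 4 lists. The list did not hold Csrp3, a muscle gene that lay whole in a stretch, as given above, nor Murc, which is named for muscle and lay whole in a stretch of 37.7 kb, so it does not count every muscle gene met.

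Signalling genes were met at close to the share of all genes. Of 52 Wnt ligands, receptors and antagonists, 2 were met. Ror2, a receptor tyrosine kinase for Wnt ligands, had 40.4% of its body in stretches, and both knockdown lists held LAD over it (50.8% of the body with Tmem120a knockdown and 42.9% with double knockdown) while preadipocytes and adipocytes held none. Fzd3, a frizzled receptor, had its start and 23.2% of its body in a freestanding LAD of 19.6 kb, and a second stretch brought the share to 34.1%. Of 59 BMP, activin and TGF-beta genes, 2 were met. Smad4, the Smad shared by both branches of the pathway, had its start and 32.1% of its body in a freestanding LAD of 60.5 kb (chr18:73842635-73903132), and 59.5% with a second stretch. Smad9, a Smad of the BMP branch, had 34.6% of its body in one of 15.8 kb (chr3:54576390-54592175).

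Gene families gave shares on either side of 4.5%. Collagens were met in 6 of 43 cases (14.0%) and potassium channels in 10 of 96 (10.4%), and the median gene length was 114.4 kb in the former and 27.5 kb in the latter, against 15.4 kb over all genes. Glutamate and GABA receptors were met in 4 of 46 (8.70%, median gene length 126.3 kb), Zfp zinc finger genes in 21 of 371 (5.66%), solute carriers in 20 of 370 (5.41%), cadherins and protocadherins in 3 of 59 (5.08%), cytokine and chemokine genes in 6 of 160 (3.75%) and cytochrome P450 genes in 3 of 98 (3.06%). Keratin genes were met in 2 of 97 (2.06%). No serpin of 60 and no vomeronasal receptor of 322 was met, and 7 of 1113 olfactory receptors were (0.629%). Of the olfactory receptors, whose median length was 0.96 kb, 1006 had their start in LAD of the Tmem120a knockdown list and 1006 in LAD of the adipocyte list. The 2 families with the highest shares were not particular to these stretches. Those of the double knockdown alone met 7 collagens and 10 potassium channels, among 1502 genes met. Preadipocyte stretches met 1 and 6 among 741, and adipocyte stretches 3 and 3 among 350.

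By transcription start the families read differently. The starts of 10 Zfp genes (2.70%), 5 potassium channels (5.21%), 3 cytochrome P450 genes (3.06%), 3 cytokine genes (1.88%), 3 solute carriers (0.811%), 2 collagens (4.65%) and 2 keratin-associated genes (2.06%) lay in stretches, against 1.59% of all genes. The starts of 7 of 1113 olfactory receptors (0.629%) did so, and none of the starts of 46 glutamate and GABA receptors, 59 cadherins and protocadherins, 322 vomeronasal receptors and 60 serpins. Zfp109, Zfp114, Zfp322a, Zfp488, one of the entries named Zfp738 and Zfp759 lay whole in stretches of 24.2 to 68.3 kb. Cyp11b1 and Cyp11b2, neighbouring genes for adrenal steroid synthesis, shared a stretch of 42.1 kb on chromosome 15, and Ifna2 and Ifnab, type I interferon genes, one of 41.5 kb on chromosome 4. Il10, an anti-inflammatory cytokine, lay whole in a stretch of 32.9 kb (chr1:132910709-132943571). Krtap5-2 lay whole in a stretch of 55.8 kb together with 80.8% of Krtap5-3. Several of these families hold near-identical copies, for which the placing of reads is uncertain.

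Some long genes held stretches amid LAD of other lists. Grik4, a kainate receptor subunit, had 25.2% of its 426.4 kb body in stretches, 47.7% with LAD in the single knockdown and 44.2% with LAD in the double knockdown, and none in LAD of preadipocytes or adipocytes. Col23a1 had 23.0% in stretches, with 30.1% in LAD of the Tmem120a knockdown and 39.0% in LAD of the double knockdown. Kcnh1 had 16.3% in stretches, with 45.4% of its body in preadipocyte LAD and none in adipocyte LAD. Grik2 went the other way, with 94.7% in adipocyte LAD, 35.6% in LAD of the Tmem120a knockdown, none in the double knockdown and 2.82% in a stretch.

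The stretches were spread over all chromosomes but not evenly. Chromosome 13 had most per length, 122 stretches or 10.1 per 10 Mb, which came to 3.03% of the chromosome and 8.45% of its LAD length in the Tmem120a knockdown list. Chromosomes 10 and 12 followed with 8.54 and 8.08 per 10 Mb. Chromosome 16 had the fewest among autosomes, 4.27 per 10 Mb, and chromosome X held 112 stretches, 6.72 per 10 Mb. Neighbouring stretches lay a median of 644.4 kb apart, and 295 of 1589 neighbouring pairs (18.6%) were within 100 kb of each other.

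Of 1577 annotated miRNA genes, 28 lay whole in a stretch. This came to 0.652 per Mb, near the 0.594 per Mb of the genome, so the count is close to what their length alone would give. Of the 28, 2 matched an entry of the RefSeq table (GRCm38.p6) by symbol. Mir466j lay in a freestanding LAD of 49.1 kb on chromosome 10 and Mir1961 in one of 36.2 kb within Shroom3 on chromosome 5. Their mature sequences are given with the seed, bases 2 to 8, in capitals, since the seed sets which transcripts a miRNA can pair with.
mmu-miR-466j (Mir466j): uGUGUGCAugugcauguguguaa
mmu-miR-1961 (Mir1961): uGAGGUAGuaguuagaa
The pair do not share a seed, and their expression was not measured here.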

How the data were processed

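LaminB1-DamID was measured in 4 conditions, each with 1 LaminB1-Dam and 1 Dam library. Per the labels and the study's methods, the authors mapped reads to mm9 (BWA is named in the submitters' processing notes), computed a log2 LaminB1/Dam value per DpnI fragment and segmented it into LADs with DNAcopy. The deposited lists hold LAD positions only, with no score, ratio or read count, so depth is unknown and precision cannot be stated beyond counting over regions. The shortest LAD in any list was 15001 bp. The authors' 2 lists of differential regions hold their own comparison and were not used here.

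Starts were read as counting from 0 and are printed counting from 1; if the files count from 1, every start shifts by 1 bp. Runs of bp with 1 set of lists were formed, and those of the Tmem120a knockdown list alone of at least 8 kb were kept. A stretch was freestanding when it was a whole LAD. Sequence was read from NCBIM37 (mm9), and 22367 protein-coding genes on chromosomes 1 to 19, X and Y from GENCODE vM1 of that assembly. GC, CpG and GATC values are per base that is not N. Promoters run from 250 bases before to 50 after the start. Interval code was tested on simulated lists and bp by bp on chromosomes 19 and X. Python 3.11.15, numpy 2.4.6, scipy 1.17.1 (95% Wilson intervals) and matplotlib 3.10.9 were used.

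No test was made, since each condition has 1 list and the members were chosen from these lists. The members and gene lists were chosen with earlier results of these data known. Stretches named were the 5 longest, the 3 longest freestanding, the 3 longest joined on both sides and the 3 meeting most protein-coding genes. Genes named were those of these stretches (at most 5 each), the 20 longest wholly inside a stretch, members of the lists that met a stretch (at most 6 per family, by share of the body) and miRNA genes inside one. The genes singled out among these, the repeated GATC site ends, the genes met by most stretches and the densest windows were picked after values were seen. Alternatives were a 20 kb or no minimum, LADs under 30 kb dropped, gaps under 10 kb closed, other lists widened by 10 kb, autosomes only, and genes counted by start or by at least 50% of the body.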

Additional observations from a re-analysis of the deposited data

How the results depend on the processing

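Over 72 alternative values of 10 results, 54 stayed within the 95% interval over regions (or, for counts, lengths and densities, within 1.5 times the value given) and 18 moved. The moved values were these. With a 20 kb minimum there were 940 stretches, with a median of 31.2 kb, 58.1% freestanding, 7.87% joined on both sides and a median distance of 8.90 kb to another list's LAD (0 kb with 8 kb). With no minimum the median length was 18.1 kb, 34.9% were freestanding, 11.4% were joined on both sides and the median was 2.47 GATC sites per kb. With LADs under 30 kb dropped from every list there were 1068 stretches, with a median of 32 kb and 37.7% freestanding. With the other lists widened by 10 kb, 56.2% were freestanding, 7.82% were joined on both sides and the median distance was 13.0 kb. On autosomes only, the median GC was 42.4%. Protein-coding genes numbered 294 with at least 50% of the body inside and 356 by start, beside 1006 by any overlap. The changes with the minimum follow from which lengths it keeps, and the cause of the others was not tested. Closing gaps under 10 kb moved none of the 10 results, and leaving out the 95 stretches with at least 50% repeated GATC site ends, added after seeing the data, left 1515 stretches and moved none. Summed length (31.3 to 44.9 Mb) and gene starts per Mb (8.15 to 8.59) moved under no alternative. No paired analysis was possible because each condition has 1 list.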

Other observations

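Stretches were spread over much of the genome. Among windows of 1 Mb, 1004 of 2665 met a stretch and 150 met 3 or more. The densest by length was chr12:54000001-55000000, with 9 stretches of 326.3 kb in all, which met Akap6, an anchoring protein for protein kinase A, and Npas3, a transcription factor of the nervous system. There the Tmem120a knockdown list held 377.8 kb of LAD, the double knockdown list 149.2 kb, the adipocyte list 22.2 kb and the preadipocyte list none. The next, chrX:90000001-91000000, held 7 stretches of 308.1 kb around Pola1 and Pcyt1b. Its LAD length was 343.8 kb in the Tmem120a knockdown, 133.3 kb in the double knockdown and 44.0 kb in adipocytes, with none in preadipocytes. Further down by length, after other windows on chromosome X that are not described here, came chr13:27000001-28000000. It held 5 stretches of 248.5 kb over 9 genes of the prolactin family used in the placenta, among them Prl3b1, Prl8a6 and Prl2a1. Here adipocytes held 240.0 kb of LAD, preadipocytes 40.8 kb, the Tmem120a knockdown 323.8 kb and the double knockdown 33.6 kb.

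Of the 1006 genes met, 922 met 1 stretch and 6 met 4 or more. Npas3 met 6, which took 24.9% of its 823.5 kb body, with 11.9% of the body in LAD of the double knockdown and none in preadipocytes or adipocytes. Gpc6, a glypican, met 5, with 12.2% of its body in stretches. Nr3c2, the mineralocorticoid receptor, met 4 over 25.9% of its 345.6 kb, with 5.16% of its body in adipocyte LAD and none in LAD of preadipocytes or of the double knockdown. Fam172a met 4 over 20.6%, Grik4 4 over 25.2% and Dlg2, a synaptic scaffold protein, 4 over 5.75%. Reads behind these positions were not analysed here, so the strength of each LAD is unknown.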
